A study of Homo sapiens with 2 samples.

Results

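Flag-ETV4 peaks were examined at 9 genes of homologous recombination and the Fanconi anaemia pathway, BRCA1, BRCA2, PALB2, FANCA, FANCD2, FANCI, FANCM, BRIP1 and BLM. The genes, 9 among 20037 protein-coding RefSeq genes, were chosen by name with earlier results of these data known. Their peaks were every interval of the list within 10 kb of a gene span, 22 of 54389 in all. The span is the RefSeq gene on GRCh38 from its first to its last base over all transcripts. The peaks came from 1 anti-Flag ChIP library of A549-shETV4 cells, called against input chromatin, for which there was 1 library. A549 is an established human lung adenocarcinoma line. In these cells ETV4, an ETS-family transcription factor, had been knocked down by shRNA and put back as a Flag-tagged protein by transfection, so the peaks describe the tagged protein expressed from a plasmid and not endogenous ETV4. The antibody was from Sigma in the sample labels and from CST in the study's methods. There was no replicate, and no library from cells without Flag-ETV4 was analysed here, so no value has an SD and no difference between conditions could be tested. Gene expression was not analysed here.

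Homologous recombination repairs DNA double-strand breaks and broken replication forks by copying the sister chromatid. BRCA1 acts early and recruits PALB2, which brings BRCA2 to the resected single-stranded DNA, where strand exchange is set up. The Fanconi pathway deals with crosslinks between the DNA strands: a core complex that contains FANCA is anchored to the lesion by FANCM and ubiquitinates the FANCD2 and FANCI pair, while the helicases BRIP1 and BLM work on the exposed strands and on joint molecules. Mutations of these genes predispose to cancer or cause Fanconi anaemia or Bloom syndrome.

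Each of the 9 genes had a peak at its 5′ end, and the strength of that peak ran from low to high within the range over other genes. The peak at BLM was the strongest, with a fold enrichment of 60.3 over the control, and the peaks at BRCA2 and PALB2 were the weakest, with 7.60 and 5.94. A start site was listed for 8 of the 9 genes in the RefSeq promoter table, which gives strand and the sequence from 250 bases before to 50 bases after each start. FANCI had no entry and was judged at either end of its span. Peaks within 1 kb of the 5′ end, measured from the interval, were found at 9 of 9 genes (Wilson 95% interval 70.1% to 100%). By the same rule 62.4% of all protein-coding genes had such a peak, or 64.4% if only genes with a listed start were counted. The genes were chosen by name and are no random sample, so the Wilson interval describes and does not test against these shares. A peak with a fold enrichment over 10 was present at 7 of the 9 genes, against 45.5% of protein-coding genes. The wider window of 10 kb around the span held a peak for 9 of 9 genes, beside 81.6% of all protein-coding genes and 91.2% of those between 38146 and 184390 bp long, the range of the 9 genes.

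The promoter sequences of BLM, FANCD2, PALB2 and BRCA2 are shown because they span the range of fold enrichment and each holds the 6 bases CCGGAA or their reverse complement, a preferred form of the site bound by ETS factors. Each runs 5′ to 3′ in the direction of the gene on RefSeq GRCh38.p14, the last 50 bases beginning with the start site, with every CCGGAA or TTCCGG in capitals. They lie at chr15:90717096-90717395 (plus strand) for BLM, chr3:10026187-10026486 (plus strand) for FANCD2, chr16:23641261-23641560 (minus strand) for PALB2 and chr13:32315258-32315557 (plus strand) for BRCA2.
BLM: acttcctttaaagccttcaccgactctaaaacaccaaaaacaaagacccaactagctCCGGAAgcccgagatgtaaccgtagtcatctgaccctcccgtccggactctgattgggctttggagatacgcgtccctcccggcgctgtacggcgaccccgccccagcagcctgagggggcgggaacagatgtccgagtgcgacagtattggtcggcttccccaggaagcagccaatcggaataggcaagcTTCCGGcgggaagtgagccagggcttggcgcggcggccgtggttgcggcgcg
FANCD2: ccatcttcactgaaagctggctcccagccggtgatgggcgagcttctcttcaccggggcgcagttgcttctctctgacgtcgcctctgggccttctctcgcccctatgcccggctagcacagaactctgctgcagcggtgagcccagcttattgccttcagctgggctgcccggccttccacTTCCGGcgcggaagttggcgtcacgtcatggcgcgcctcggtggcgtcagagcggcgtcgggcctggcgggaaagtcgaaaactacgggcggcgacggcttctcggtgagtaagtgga
PALB2: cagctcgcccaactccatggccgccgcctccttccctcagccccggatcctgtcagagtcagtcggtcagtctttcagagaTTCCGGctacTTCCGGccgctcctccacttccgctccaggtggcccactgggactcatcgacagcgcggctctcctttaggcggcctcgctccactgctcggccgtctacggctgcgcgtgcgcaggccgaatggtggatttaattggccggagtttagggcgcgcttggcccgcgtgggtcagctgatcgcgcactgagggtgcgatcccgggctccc
BRCA2: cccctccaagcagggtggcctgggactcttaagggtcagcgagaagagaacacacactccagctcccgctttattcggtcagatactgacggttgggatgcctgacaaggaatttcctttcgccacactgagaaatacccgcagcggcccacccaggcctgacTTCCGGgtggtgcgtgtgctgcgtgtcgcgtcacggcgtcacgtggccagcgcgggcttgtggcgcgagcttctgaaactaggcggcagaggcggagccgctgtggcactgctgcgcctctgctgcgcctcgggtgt

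The position of these letters relative to the summit differed between the genes. In PALB2 both matches lay 15 and 25 bp from the summit. In BLM 1 match began 2 bases before the start site and was 47 bp from the summit, and the other was 238 bp away. In FANCD2 the single match was 66 bp from the summit. In BRCA2 the single match was 551 bp from the summit, which lay 467 bp downstream of the start. FANCM, not shown, held 2 matches at 197 and 273 bp. The peak at PALB2, with a pair of matches next to the summit, was weaker than those at BRIP1 and FANCA. No match was found in the windows of BRIP1 and FANCA, but their summits lay outside these windows. The windows stop 50 bases after the start, and the summits were 129 bp (BRIP1) and 183 bp (FANCA) downstream of it. The sequence under those summits was not searched, so whether a match goes with peak strength was not tested by this contrast.

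Counted over the 9 promoter windows of the 8 genes, BRCA1 having a pair of starts, CCGGAA was present on either strand in 5. It was present in 21.2% of 22199 promoters of protein-coding genes, in 29.1% of those with a peak within 1 kb and in 9.11% of those without. The longer form CCGGAAGT, which contains CCGGAA, was present in 3 of the 9 windows, those of FANCD2, BRCA2 and PALB2. Its share was 5.34% of all promoters and 8.0% of those with a peak. The core GGAA, which both contain, was in 9 of 9 windows and in 95.1% of all promoters, a share near its background. Of the motifs of other factors, all searched on both strands, the CCAAT box of NF-Y was in 6 of the 9 windows, in 34.7% of all promoters and in 33.5% of those with a peak. The SP1 motif GGGCGG was in 5 of the 9 windows, in 56.3% of all promoters and in 72.8% of those with a peak. The E2F motif TTTCCCGC was in 1 window, that of FANCD2, where it overlapped the start and was centred 1 bp from the summit. Its share was 1.99% of all promoters and 2.55% of those with a peak. Neither TTTGGCGC, another E2F form, nor GCGCATGC of NRF1 was found in the 9 windows. TTTGGCGC was in 0.815% of all promoters and 1.06% of those with a peak, and GCGCATGC in 3.74% and 4.79%. The median GC content of the 9 windows was 61.3%, against 66.7% for promoters with a peak and 53.3% for promoters without. A match describes letters in the window and not binding by the factor.

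The numbers of fragments behind the peaks were obtained from the list itself. The fold enrichment divides the pileup at the summit by the control level, after 1 has been added to each, and the −log10 p depends on the same pair of quantities, so that both could be solved for each peak. The pileup is the number of fragments from the immunoprecipitate that cover the summit, and the control level is the number expected there from the input. Its lowest value, 1.28, was shared by 29.0% of all peaks and acts as a floor, so there it need not be the local level. The peaks over the inner start of BRCA1 and deep inside BRCA1 were among those at the floor. Intervals on a pileup are exact Poisson 95% intervals, those on a fold enrichment carry them over with the control level held fixed, and both cover counting error only. Reads were counted without molecular identifiers, and the total number of reads is unknown. Over all 54389 peaks the median pileup was 26 fragments, the median fold enrichment 9.63 and the median −log10 q 19.3.

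BLM encodes a RecQ helicase that, with topoisomerase III alpha, undoes double Holliday junctions without crossover. Its promoter peak at chr15:90716648-90717953 was 1306 bp wide, with a pileup of 161 fragments (137 to 188), a −log10 q of 249 and a control level of 1.69. Its highest point was 48 bp downstream of the start. By fold enrichment it had a percentile rank of 96.0 among all peaks and of 95.9 among the 12501 protein-coding genes with a peak at the 5′ end. In this order BLM stood apart from the other 8 genes, as the lower bound of its fold enrichment, 51.4, was above the upper bound of the next gene, 38.5.

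**Figure D1:**
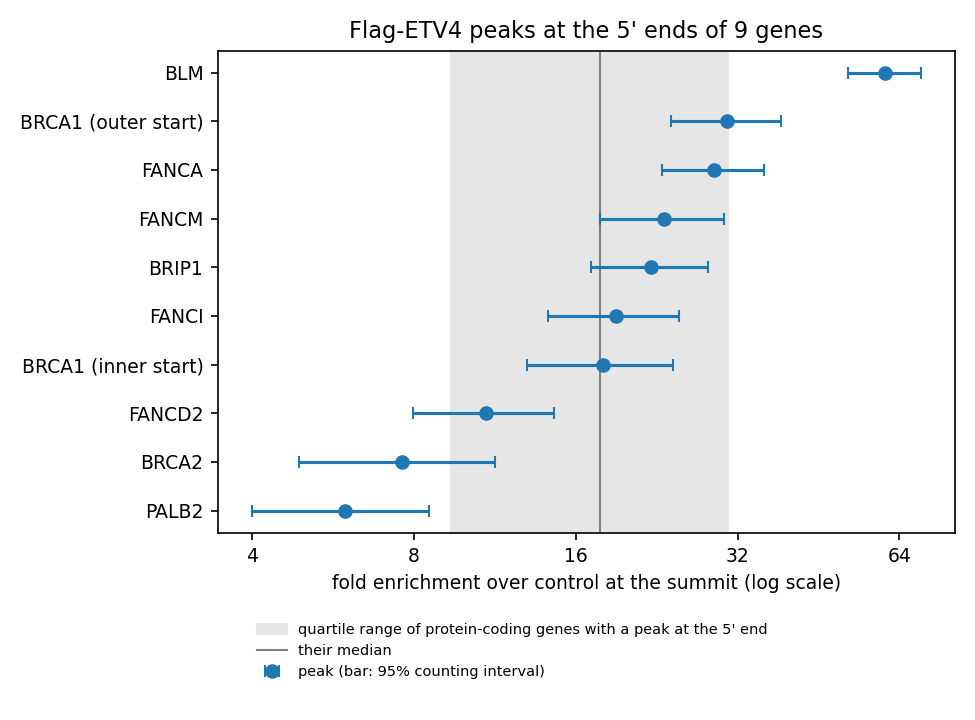
Fold enrichment over the control at the summit (horizontal axis, log scale) of the 10 peaks within 1 kb of a 5′ end of the 9 genes, with counting intervals of 95% as bars; the grey band and line give the quartiles, 9.37 and 30.7, and the median, 17.8, over protein-coding genes with a peak at the 5′ end. BLM lies to the right of the band, BRCA2 and PALB2 lie to its left, and the neighbours between BRCA1 and PALB2 overlap in their intervals.

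FANCA, the gene most often mutated in Fanconi anaemia, encodes a core complex subunit. Its peak at chr16:89815816-89817047 had a fold enrichment of 29.0 from 82 fragments (65.2 to 102), with a −log10 q of 99.8. The summit was 183 bp downstream of the start. FANCM encodes the translocase that anchors the core complex. Its peak at chr14:45135636-45136492 had a fold enrichment of 23.4 with 56 fragments (42.3 to 72.7), and its summit lay 112 bp downstream of the start. BRIP1 encodes a helicase that binds BRCA1 and is also known as FANCJ. Its peak at chr17:61862842-61863906 had a fold enrichment of 22.1 with 63 fragments (48.4 to 80.6), and its summit lay 129 bp downstream of the start. The intervals on the fold enrichments of these 3 genes, 23.1 to 35.9, 17.7 to 30.2 and 17.1 to 28.2, overlapped.

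FANCD2 and FANCI encode the partners of the ubiquitinated clamp that marks a crosslink. Their peaks were centred on the gene ends, with the summit 1 bp from the listed start of FANCD2 and 1 bp outside the lower end of the FANCI span. The peak at FANCI, chr15:89243708-89244808, had a fold enrichment of 19.0 (14.2 to 24.9) with 50 fragments. The peak at FANCD2, chr3:10026096-10026915, had a fold enrichment of 10.9 (7.95 to 14.6) with 43 fragments. The intervals of the pair overlapped by fold enrichment and more widely by pileup, 37.1 to 65.9 for FANCI and 31.1 to 57.9 for FANCD2, while the control level was 1.69 at FANCI and 3.04 at FANCD2. What part the control level had in the lower fold enrichment of FANCD2 was not tested.

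BRCA1, PALB2 and BRCA2 act as a chain at the resected break. At BRCA2 the peak chr13:32315442-32316157 had a fold enrichment of 7.60 (4.89 to 11.3), with 22 fragments (13.8 to 33.3) against a control level of 2.03 and a −log10 q of 13.9. Among protein-coding genes with a peak at the 5′ end its percentile rank was 18.7. At PALB2 the peak chr16:23641028-23642102 had a fold enrichment of 5.94 (3.99 to 8.55) with a −log10 q of 12.8 and a percentile rank of 11.5. Its 27 fragments (17.8 to 39.3) were not fewer than those at BRCA2, and its control level of 3.71 was the highest of the 22 peaks. The order of BRCA2 and PALB2 was therefore reversed by pileup, and on either scale their intervals overlapped.

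BRCA1 differs from the other genes in that RefSeq lists a pair of starts for it, 44963 bp apart. The inner start, at base 43125364 of chromosome 17, lies 193 bp from the lncRNA gene NBR2, which runs the other way. The outer start, at 43170327, lies 82 bp from NBR1, the gene of an autophagy receptor, and next to BRCA1P1, a partial pseudogene copy of BRCA1. Both had a peak. The peak over the inner start, chr17:43124427-43126396, was 1970 bp wide, with a fold enrichment of 18.0 (13.0 to 24.3), 40 fragments and a summit 36 bp upstream of the start. The peak over the outer start, chr17:43169281-43171800, was 2520 bp wide, with a fold enrichment of 30.6 (24.0 to 38.5) and 71 fragments, but its summit lay 970 bp upstream of that start and inside NBR1. The gene end nearest to that summit was that of LOC124900391, 333 bp away. The intervals of the 2 peaks overlapped slightly by fold enrichment and did not overlap by pileup, 55.5 to 89.6 at the outer start and 28.6 to 54.5 at the inner. The outer peak cannot be assigned to BRCA1 rather than NBR1. With BRCA1 taken at the inner start, its percentile rank among gene starts was 50.6 in place of 74.9, and the median fold enrichment of the 9 genes was 19.0 in place of 22.1. The number of genes above the median over protein-coding genes with a peak at the 5′ end, 17.8, was 6 of 9 either way.

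The 2 promoter windows of BRCA1 are shown because they are partly copies of each other, which bears on how reads are placed. They are taken from RefSeq GRCh38.p14 and run 5′ to 3′ in the direction of the gene, on the minus strand, the last 50 bases beginning with the start, with every GGAA or TTCC in capitals, and they lie at chr17:43125315-43125614 and chr17:43170278-43170577.
inner start: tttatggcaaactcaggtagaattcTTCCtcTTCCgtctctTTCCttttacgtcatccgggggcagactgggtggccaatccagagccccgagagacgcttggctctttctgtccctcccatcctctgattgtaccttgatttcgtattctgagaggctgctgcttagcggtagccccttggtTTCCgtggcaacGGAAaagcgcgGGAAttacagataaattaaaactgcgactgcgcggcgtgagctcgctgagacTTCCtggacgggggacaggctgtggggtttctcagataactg
outer start: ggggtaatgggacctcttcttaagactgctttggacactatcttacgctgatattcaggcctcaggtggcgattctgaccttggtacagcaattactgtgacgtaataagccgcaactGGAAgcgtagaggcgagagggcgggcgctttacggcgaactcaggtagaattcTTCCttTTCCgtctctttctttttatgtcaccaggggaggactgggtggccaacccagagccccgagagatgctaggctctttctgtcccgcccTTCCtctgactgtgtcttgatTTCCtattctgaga
A local alignment joined bases −250 to −96 of the inner start with bases −104 to 49 of the outer start and found 137 of 155 aligned columns identical, 88.4%. The aligned stretch reached an edge of each window, so how far the copy extends beyond them was not analysed. The inner summit lay in its window but outside the aligned stretch, and the outer summit lay upstream of its window. Whether either summit falls in copied sequence was therefore not examined. How reads that match both copies were treated is not given in the sources used here.

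**Figure D2:**
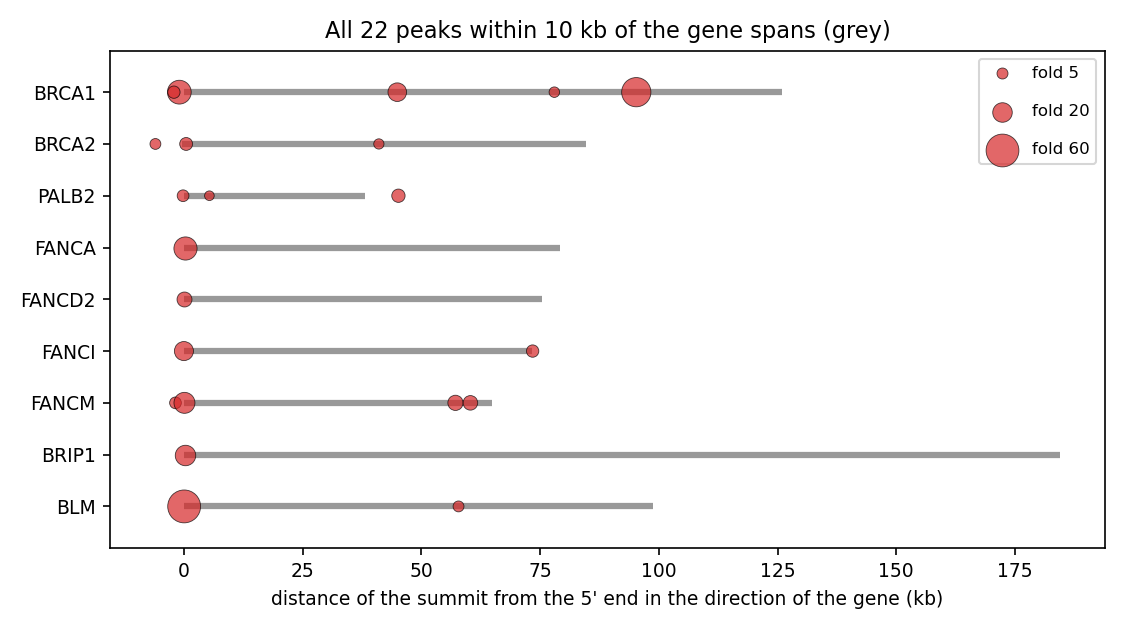
Position of the 22 peaks along the 9 genes, as the distance of the summit from the 5′ end in kb in the direction of the gene, with each gene span in grey and the area of a point growing with the fold enrichment; BRCA1 is drawn from its outer start. FANCA, FANCD2 and BRIP1 have a peak at the 5′ end alone, while BRCA1 has its strongest peak 95257 bp into the span.

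Upstream neighbours close to the start were common among these genes. Within 1 kb upstream of a listed start lay the end of another gene for 5 of the 8 genes, against 26.5% of 15843 protein-coding genes with a listed start. The neighbours were NBR2 and NBR1 for BRCA1, ZAR1L at 145 bp for BRCA2, DCTN5 at 156 bp for PALB2, CIDECP1 at 301 bp for FANCD2 and CRTC3-AS1 at 206 bp for BLM. Apart from CIDECP1, a pseudogene whose strand was not listed, all were transcribed away from the repair gene. In each case but BRCA2 a single peak contained both the start of the repair gene and the end of the neighbour. The summit at PALB2 lay 25 bp inside DCTN5, the gene of a dynactin subunit, and 181 bp upstream of PALB2. At BRCA2 the peak began beyond the end of ZAR1L, on the BRCA2 side, and its summit lay inside BRCA2. Of the 15843 genes with a listed start, 83.5% of those with such a neighbour had a peak within 1 kb of the start, against 57.5% of those without. A peak that covers a shared promoter cannot be given to either gene.

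**Figure D3:**
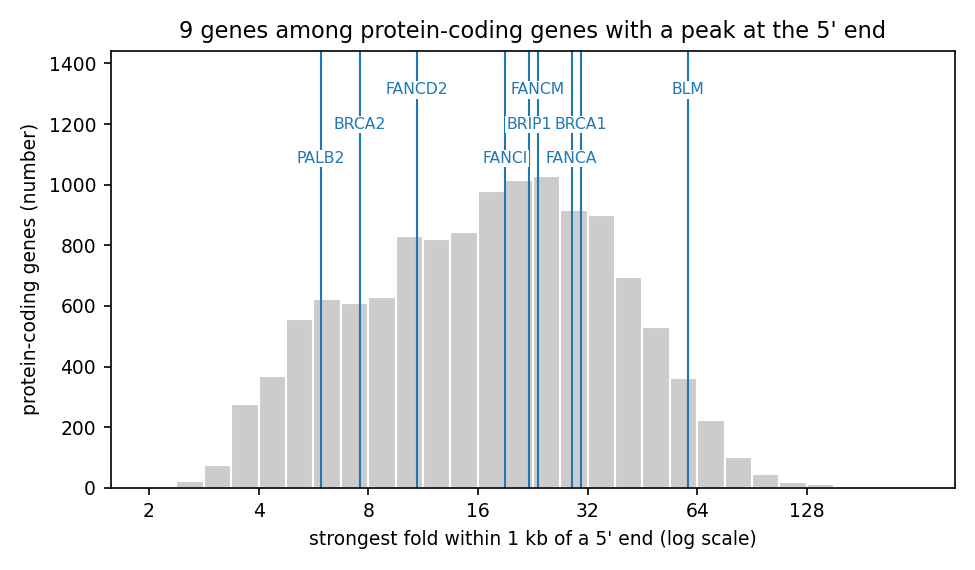
Number of protein-coding genes (vertical axis) by the strongest fold enrichment within 1 kb of a 5′ end (horizontal axis, log scale), over the 12501 genes with such a peak, with the 9 genes as blue lines. The lines run from PALB2 at 5.94 to BLM at 60.3 and cover most of the distribution.

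Outside the 5′ ends there were 12 peaks, and most were weak. Their median fold enrichment was 6.36 and 9 of the 12 were under 10. Over all 54389 peaks the median, 9.63, was also under 10. At the 5′ ends the lowest value was 5.94, and the median over the strongest peak of each gene was 22.1. The 12 peaks were also narrower, with a median width of 372 bp, against 1075 bp for the strongest peaks at the 5′ ends of the 9 genes. Over the 22 peaks Spearman's rho between width and fold enrichment was 0.84, given as a description because both depend on the same pileup, and over all 54389 peaks it was 0.75.

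The strongest of them was an interval deep inside BRCA1. The peak chr17:43074278-43075359 had a fold enrichment of 47.3 (38.8 to 57.1) with 107 fragments (87.7 to 129), a control level of 1.28 and a −log10 q of 160. Its percentile rank among all peaks was 93.2, and its pileup interval lay above that of the inner promoter, 28.6 to 54.5. Its summit lay 50294 bp downstream of the inner start, within the gene span, and 4191 bp from the nearest gene end, that of the ribosomal protein pseudogene RPL21P4. Whether it falls in an exon or an intron was not analysed here. A second interval in BRCA1, chr17:43092187-43092470, had a fold enrichment of 4.38 with 9 fragments.

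FANCM held a pair of further peaks near its 3′ end, with fold enrichments of 11.4 (25 fragments) and 10.2 (24 fragments). Their summits lay 57180 and 60326 bp downstream of the start, and the latter was 4634 bp from the end of the gene. Single weak peaks inside the span were found in BRCA2 (fold enrichment 4.09, 10 fragments), PALB2 (3.38, 7 fragments) and BLM (4.84, 12 fragments). The PALB2 value, with a −log10 q of 2.07, had a percentile rank of 2.01 among all peaks. The nearest gene ends to the BRCA2 and BLM peaks were those of IFIT1P1, 28044 bp away, and LOC124903590, 19861 bp away. No such peak was listed inside FANCA, FANCD2, FANCI or BRIP1, although BRIP1 has the longest span, 184390 bp.

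**Figure D4:**
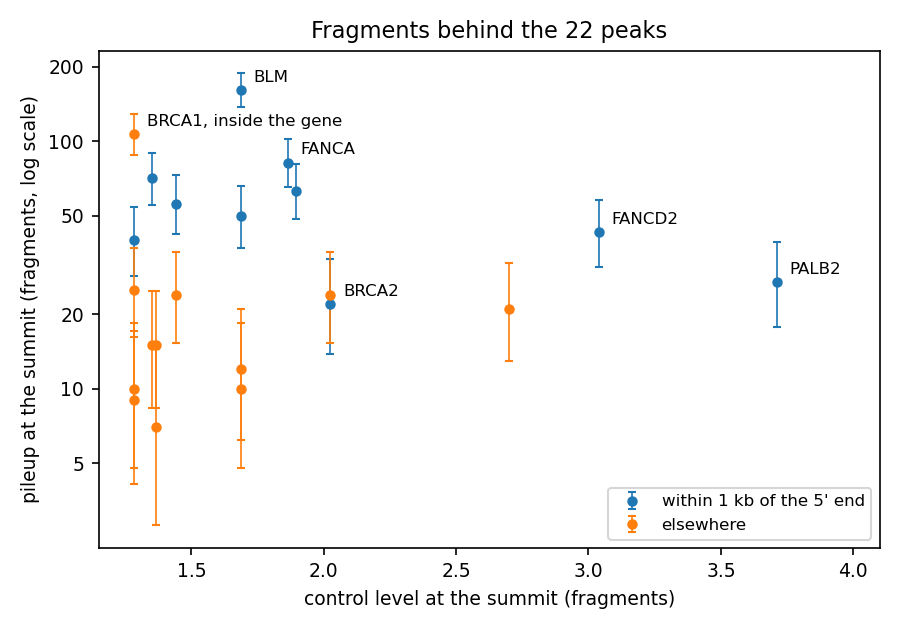
Pileup at the summit in fragments (vertical axis, log scale, with exact Poisson 95% intervals) against the control level in fragments (horizontal axis) for the 22 peaks, in blue within 1 kb of the 5′ end and in orange elsewhere. FANCD2 and PALB2 stand to the right with control levels of 3.04 and 3.71, and the peak inside BRCA1, with 107 fragments, is the orange point above the others.

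The other peaks of the windows lay at or beside neighbouring genes. A peak at the end of NDUFAB1, which encodes the mitochondrial acyl carrier protein, had a fold enrichment of 8.26 and was 6668 bp from the PALB2 span, the farthest peak that the window of 10 kb admitted. A peak at FKBP3, the gene of a prolyl isomerase, had a fold enrichment of 5.95 (3.78 to 8.95) and lay 1777 bp upstream of FANCM, whose own peak was stronger, 17.7 to 30.2. A peak of 6.76 lay in NBR1, 2113 bp beyond the outer start of BRCA1. A peak of 4.82 lay in ZAR1L, 5574 bp before the BRCA2 span. A peak of 6.81 with 15 fragments lay 150 bp beyond the upper end of FANCI, inside POLG, which encodes the catalytic subunit of the mitochondrial DNA polymerase. The nearest peak left out by the window was 11752 bp from FANCA, with a fold enrichment of 42.8.

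The number of peaks per gene ranged from 1 at FANCA, FANCD2 and BRIP1 to 5 at BRCA1, with a median of 2, and the median over protein-coding genes of the same range of length was also 2. Of those genes 25.9% had 1 peak and 18.0% had 5 or more.

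The other genes of the pathway were a list of 69. Of these, 61 had a peak at the 5′ end, 88.4% (Wilson 95% interval 78.8% to 94.0%), beside 62.4% of all protein-coding genes. The list was chosen with earlier results of these data known, so the interval is a description and no test against that share. In 44 of the 69 the fold enrichment was over 10, 63.8% beside 45.5%. The median over the 61 was 20.2, beside 17.8 over protein-coding genes with a peak there. Of the 61, 55 had a listed start. The others, which enter the counts by role, were judged at either end of the span, so their peak may lie at the 3′ end. By role, all of the 10 genes of strand exchange and annealing, all of the 10 genes of junction dissolution and the anti-recombinases, all of the 6 genes of end resection and all of the 5 genes of Fanconi deubiquitination and downstream steps had a peak. So had 11 of 12 further genes of the Fanconi core complex and its associates, the exception being UBE2T, which encodes the ubiquitin-conjugating enzyme. A peak was also present at 7 of 8 genes of structure-specific nucleases and at 6 of 7 partners of BRCA1 or BRCA2. Of DMC1 and the genes of the paralog and Shu complexes, which assist strand exchange, 5 of 8 had a peak, and of the subunits of the single-strand binding protein RPA 1 of 3, RPA2 with 20.2.

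The strongest peaks of the list were at ERCC1, with a fold enrichment of 73.8, and EME1, with 73.1, which encode subunits of nucleases that cut branched DNA and were the only 2 of the 69 above BLM by fold enrichment. BARD1, the obligate partner of BRCA1, followed with 55.0, NBN, a subunit of the end-resecting MRN complex, with 54.0, and the helicase gene RECQL with 52.5. The weakest were at the ubiquitin ligase gene RFWD3 with 3.47, at RAD51C, a gene of the paralog complexes, with 3.82, at ERCC4, whose product is the catalytic partner of ERCC1, with 4.30, at the MRN nuclease gene MRE11 with 4.49 and at the translocase gene RAD54L with 4.86. By pileup 6 of the 69 were above the 161 fragments of BLM, EME1 with 319, ERCC1 with 312, UIMC1, whose product brings BRCA1 to ubiquitinated chromatin, with 287, NBN with 229, RECQL with 195 and MCM8, a helicase subunit gene, with 172. BARD1 had 134 fragments. Upstream neighbours were not examined gene by gene for the 69, so whether these peaks cover shared promoters is not known here. By fold enrichment, some partners in 1 complex stood at opposite ends, ERCC1 against ERCC4 and NBN against MRE11. These pairs were picked from the highest and lowest of the list, and RAD50, also of the MRN complex, lay between with 26.5. NBN had no listed start and was judged at either end of its span.

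**Figure D5:**
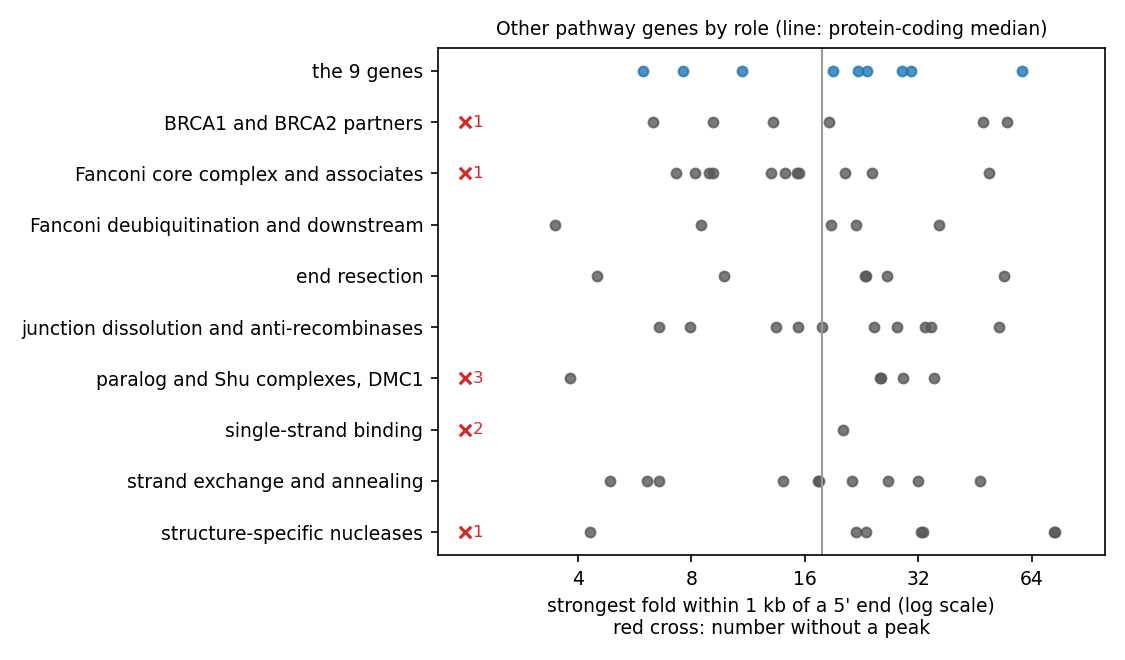
Strongest fold enrichment within 1 kb of a 5′ end (horizontal axis, log scale) for the 9 genes (blue) and the 69 other genes of the pathway by role (grey), with the number of genes without a peak beside a red cross and the median over protein-coding genes, 17.8, as a line. Both structure-specific nuclease genes beyond BLM, ERCC1 and EME1, lie at 73.8 and 73.1, and the group of DMC1 and the paralog and Shu complexes has 3 genes without a peak.

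No peak lay within 1 kb of the 5′ end of BABAM1, DMC1, RAD51B, RPA1, RPA3, SLX1A, UBE2T or XRCC2. DMC1 acts in strand exchange in meiosis. The nearest peak was 63785 bp from its start, and 1 peak lay within 10 kb of its span. For XRCC2 and RPA1 no peak lay within 10 kb of the span at all, and the nearest were 36261 and 42282 bp from their starts. For RAD51B the nearest peak was 2297 bp from a start, and 22 peaks lay within 10 kb of its span. SLX1A has a near-identical copy, and the handling of reads that match both is not given in the sources used here. A gene without a peak was below the threshold of this list at this depth, which does not show that ETV4 was absent there.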

How the data were processed

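ChIP-seq peaks of 1 anti-Flag immunoprecipitate were analysed; the input library entered only through the values of the peaks. The deposited list gives the fold enrichment as a ratio, with −log10 p and −log10 q, at each summit. The submitters' processing notes name Bowtie2 2.4.1, SAMtools, MACS2 2.2.7.1 and deepTools 3.5.0 and hg38, without roles. The handling of duplicate and multiply mapped reads and the total depth are not given in the sources used here.

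Positions are 1-based. Gene spans, starts and promoter sequences are those of RefSeq GRCh38.p14. Of 20037 protein-coding genes, 15843 had a listed start; the others were judged at either end of the span. All listed starts of a gene were used and the strongest peak was taken. Pileups solved from fold and p-value were whole to within 0.01 for 100% of the peaks, and the solution and window search were tested on simulated data. The lowest control level of the list, 1.28, was shared by 29.0% of the peaks and acts as a floor. The windows of BRCA1 were aligned with Biopython 1.88 (match 2, mismatch −3, gap opening −5, extension −2).

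No test was possible with 1 library. The 9 genes and the list of 69 were chosen with earlier results of these data known. Named were the 9 genes with all their peaks, the genes with the nearest ends, and of the list the 5 highest, the 5 lowest and those without a peak. NBR1, BRCA1P1, CIDECP1, CRTC3-AS1, POLG, RPA2, UIMC1, MCM8 and RAD50 were named after values were seen. A further gene of the pathway is not reported here. Alternatives varied the threshold on fold and q, the windows, summit against interval, the definition of the 5′ end and the motif. Software was scipy 1.17.1, Python 3.11.15, matplotlib 3.10.9, pandas 2.3.3 and numpy 2.4.6.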

Additional observations from a re-analysis of the deposited data

How the results depend on the processing

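With a fold enrichment over 10 required, 11 of the 22 peaks remained, and 7 of the 9 genes kept a peak at the 5′ end. The count of promoter windows with an ETS motif was 5 for CCGGAA, 9 for GGAA and 3 for CCGGAAGT. The other 44 alternative values stayed within 1.5 times the reported count or, for the median fold enrichment, within the counting interval of BRIP1. Over them the median ranged from 19.0, with BRCA1 at its inner start, to 23.4, taken over only the 7 genes with a fold enrichment over 10. The count of the 69 other pathway genes with a peak ranged from 44 to 62. The use of genes with a listed start alone and of the inner start of BRCA1 was chosen after seeing the data. The lowest pileup of the 22 peaks was 7 fragments, so single weak peaks rest on few fragments. No paired analysis was possible because there was 1 library of each kind.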
